A study of Mus musculus with 5 samples.

Results

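Contacts across the Shh locus were compared between embryonic limb buds and heads of CD1 mice at E11.5. The limb and head libraries made up 4 of the 5 libraries of the series. Limb buds were pooled from many embryos and gave 2 biological replicate libraries. Heads were pooled from a few embryos and gave 1 sample, sequenced as 2 technical libraries, here head library 1 and head library 2. The fifth library, from the embryonic body, was left out. The labels name no allele, transgene or treatment for either tissue, and each tissue was taken whole, as a mixture of cell types. A contact made in more of these cells and one made more often in each cell cannot be told apart. In chromosome conformation capture carbon copy (5C), chromatin is cross-linked and cut with HindIII, neighbouring ends are ligated, and each ligation product is copied by a primer pair, with a forward primer on 1 of the joined fragments and a reverse primer on the other. The number of reads of a primer pair therefore counts how often 2 fragments were captured together. Of 33306 primer pairs read in each library, the 31328 with both fragments in the Shh region were used. A 5C library holds no expression values, so the tissue labels could not be checked against marker genes.

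Shh encodes a secreted signalling protein that patterns the limb, the neural tube and the face. Its enhancers lie in the gene, and along a large gene desert that ends within the neighbouring genes Rnf32 and Lmbr1. SFPE1 and SFPE2 drive expression in the floor plate, SBE1 in the midbrain, and SBE2, SBE3 and SBE4 in the forebrain. Enhancers for the oral and pharyngeal epithelium lie near Rnf32, at the far end of the desert. The ZRS, within an intron of Lmbr1, is the enhancer for the posterior limb bud. In the E11.5 limb bud only a group of posterior cells transcribes Shh, so most cells of a whole limb bud do not, and likewise in a whole head.

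The region ran on chromosome 5 (mm9) from Insig1 to Ube3c and was divided into 61 windows of 28 kb. The windows of Shh (chr5:28765087-28793086, which also holds SBE1 and SFPE2), SFPE1 (chr5:28793087-28821086), SBE4 (chr5:29101087-29129086), SBE2 (chr5:29185087-29213086), SBE3 (chr5:29213087-29241086) and the ZRS (chr5:29633087-29661086) were assigned from positions on a map, to the nearest window. The 5′ end of Shh lies at 28793641, just inside the SFPE1 window, but the fragment that holds it has its midpoint in the Shh window. The 9 windows from 29381087 to 29633086, here the Rnf32 interval, span the end of the desert, Rnf32 and the 3′ part of Lmbr1. Interaction frequency below is the reads of a primer pair divided by the total reads of the library and multiplied by 1000, averaged over all primer pairs between 2 windows.

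Each of the 354 fragments began at a HindIII site. The fragments whose contacts are described below are shown by the 60 bases around that site, 30 on each side of the cut, from the plus strand of NCBIM37 (mm9), with the recognition sequence AAGCTT in capitals. R145 holds Shh exons, F245 and F247 lie in the SBE4 window, in an intron of the noncoding gene 9530036O11Rik, and F394 is in an intron of Rnf32. F441 lies in the ZRS window, in an intron of Lmbr1, and R463 lies upstream of Lmbr1, within the noncoding gene 4632411P08Rik. R508 and F546 lie beyond Lmbr1, the former between genes and the latter in Ube3c. They were picked after their values were seen.
R145, chr5:28782605-28782664: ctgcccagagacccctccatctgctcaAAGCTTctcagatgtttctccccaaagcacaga
F245, chr5:29109430-29109489: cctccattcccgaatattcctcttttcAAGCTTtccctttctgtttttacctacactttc
F247, chr5:29113223-29113282: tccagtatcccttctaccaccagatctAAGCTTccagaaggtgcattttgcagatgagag
F394, chr5:29539072-29539131: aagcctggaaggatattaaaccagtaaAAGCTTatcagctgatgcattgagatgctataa
F441, chr5:29642774-29642833: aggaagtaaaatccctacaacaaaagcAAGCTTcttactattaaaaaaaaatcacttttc
R463, chr5:29713063-29713122: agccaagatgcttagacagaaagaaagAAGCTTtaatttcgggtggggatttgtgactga
R508, chr5:29849184-29849243: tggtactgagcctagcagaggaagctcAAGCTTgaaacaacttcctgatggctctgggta
F546, chr5:29967823-29967882: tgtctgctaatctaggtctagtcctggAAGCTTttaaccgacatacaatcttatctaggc

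The libraries held between 675954 reads (limb replicate 1) and 1714491 reads (limb replicate 2), of which 96.8% to 98.3% lay within the Shh region. The head libraries were sparser. After each library was thinned to the size of the smallest, 18566 and 19401 primer pairs had a read in the limb replicates, against 15698 and 12616 in the head libraries. Across 1769 window pairs at least 56 kb apart, the rank correlation of interaction frequency was 0.814 between the limb replicates and 0.614 between the head libraries. It was 0.652 to 0.782 between a limb and a head library. Thus the 2 libraries of the same head sample were less alike than head library 1 and either limb replicate. Head library 2 stood furthest from the others, so each result is given with both head libraries apart.

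Most contacts did not separate the tissues. Of 1742 window pairs with at least 50 reads over the 4 libraries and at least 56 kb apart, both limb replicates lay above both head libraries in 251 (14.4%) and below both in 337 (19.3%). The libraries of the 2 tissues overlapped in the remainder. These shares are the background for the counts below, and contacts that met either condition are called one-sided. A one-sided contact carries no test, because the head libraries are technical. Libraries can also fall in this order without any difference between the tissues, so the shares do not measure how many contacts differed. The order of these counts was not stable. Relative to the mean of each library at the same separation, 326 (18.7%) were higher in limb and 252 (14.5%) lower. Without head library 1 the counts were 742 (42.6%) and 619 (35.5%). Limb lay below head more often than above in 42 of the 61 windows, above more often in 15, and equally often in 4. When limb and the summed head sample were compared by edgeR's quasi-likelihood test, 0 of 1880 window pairs passed an adjusted p of 0.05 (0.0% called), the lowest adjusted p being 0.381, and 112 (5.96%) had an unadjusted p under 0.05. DESeq2 called 10, of which 8 were higher in limb, and edgeR with head library 2 as the only head library called 57. The edgeR test takes its spread from the 2 limb replicates alone, with 1 residual degree of freedom, and assumes that the head sample varies as they do.

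The Shh window was one-sided with 2 forebrain enhancer windows, both times higher in limb than in head. Of 13 window pairs among Shh and the enhancers, 3 were higher in limb, 3 were lower and 7 overlapped, as the plot of enhancer contacts shows. So few pairs cannot be set apart from the shares over all window pairs, 14.4% higher and 19.3% lower. The interaction frequency of Shh with SBE4 was 0.0150 and 0.0167 in the limb replicates, against 0.00895 and 0.00413 in head libraries 1 and 2. Both limb values lay above both head values, with the lower limb value 1.68 times the higher head value. Relative to the mean at the same separation, this contact stood at 1.03 in both limb replicates and at 0.495 and 0.289 in the head libraries. By this measure it was near the mean in limb and below it in both head libraries. The head values rest on 122 and 50 reads of 1 sample, and the part of sparse capture in them was not tested. The edgeR log2 fold change of limb over head was 1.31 ± 0.47 (SE), with an unadjusted p of 0.0247 and an adjusted p of 0.787.

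The interaction frequency of Shh with SBE3 was 0.0101 and 0.0161 in limb, against 0.00928 and 0.00594 in head. The lower limb replicate exceeded head library 1 by a factor of only 1.08, less than the gap between the limb replicates. In edgeR this contact had a log2 fold change of 0.82 ± 0.49 (SE) and an adjusted p of 0.806. Shh with SBE2, the window next to SBE3, overlapped between the tissues, with 0.0159 and 0.0224 in limb against 0.0177 and 0.0191 in head. Shh–SBE4 and Shh–SBE3 remained higher in limb in all 6 settings that could have undone the call. These used the reads of the Shh region as denominator, scaled each library to its mean at the same separation, or thinned the libraries to equal depth. The others capped the most-read primer pairs, left out the isolated contacts described below, or divided each primer pair by the totals of its fragments. Most settings seldom undid a call. Of 44 other one-sided pairs named below, fragment totals undid 23 and separation 17, and each of the others at most 3.

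**Figure D1:**
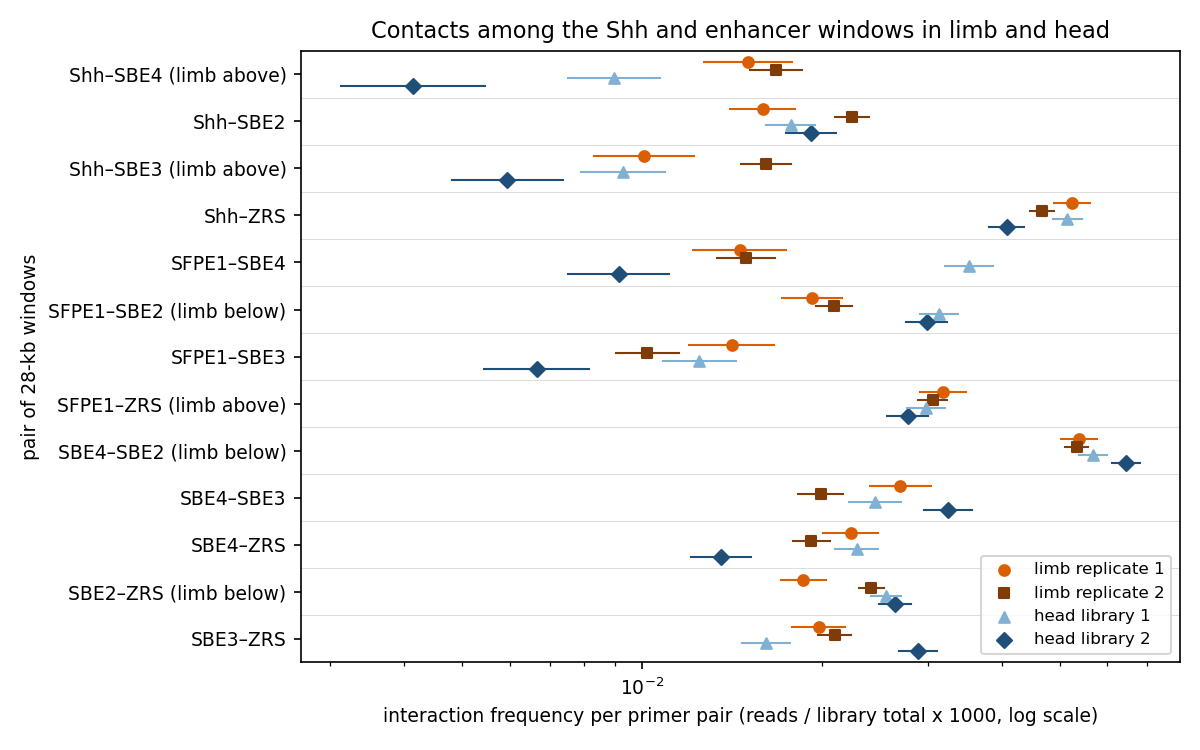
Interaction frequency (log scale) of each pair of windows among Shh and its enhancers in each of the 4 libraries, with bars for the 95% Wilson interval of the reads, which covers counting error only. For Shh–SBE4 both limb values (0.0150 and 0.0167) lie above both head values (0.00895 and 0.00413), whereas for Shh–ZRS the limb and head libraries overlap.

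The contact of Shh with the ZRS, the limb enhancer, overlapped between limb and head by reads over the library total. Its interaction frequency was 0.0523 and 0.0466 in limb, against 0.0514 and 0.0407 in head. Head library 1 lay between the limb replicates. The edgeR log2 fold change was 0.15 ± 0.22 (SE), with an adjusted p of 0.893. Both limb values lay above both head values in 2 of the 6 settings, relative to separation (log2 ratio of 0.36) and after capping (0.21). In each library this contact was more frequent than those of Shh with SBE4, SBE2 or SBE3. SFPE1 with the ZRS was higher in limb, at 0.0318 and 0.0306 against 0.0299 and 0.0278 in head. That difference was a factor of only 1.03 between the nearest libraries, and was one-sided in only 4 of the 6 settings.

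Among the enhancer windows themselves, the one-sided contacts of SBE2 were lower in limb. SFPE1 with SBE2 gave 0.0192 and 0.0209 in limb, against 0.0314 and 0.0299 in head, so that the lower head value was 1.43 times the higher limb value. This pair overlapped only when each library was divided by its own mean at that separation. SBE2 with the ZRS gave 0.0186 and 0.0242 in limb, against 0.0256 and 0.0264 in head, with 1.06 between the nearest libraries. It stayed lower in limb in all 6 settings. SBE4 with SBE2 gave 0.0538 and 0.0533 in limb, against 0.0568 and 0.0644 in head, and was one-sided in only 3 of the 6 settings. The lowest adjusted p over all pairs among these windows was that of Shh–SBE4.

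The primer pairs behind Shh–SBE4 were few. Of 13 primer pairs between these windows, 3 had no read in each limb replicate, against 5 and 11 in the head libraries. Head library 2 thus read only a small part of them, and 64.0% of its reads there came from a single pair. The pair of R145, over Shh exons, with F247 in the SBE4 window had 19 and 56 reads in limb and none in either head library. With 3 reads as the limit that a count of 0 allows, its frequency in limb was at least 8.72-fold higher. R145 with F245, the other forward fragment of that window, had 17 and 114 reads in limb, against 26 and 0 in head. The lower limb replicate and head library 1 were almost equal there, at 0.0251 and 0.0248. Of the 6 primer pairs with at least 50 reads, these 2 were one-sided and the others overlapped.

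Seen from each enhancer, the windows differed in which direction prevailed. SBE4 was below head in 16 of 58 window pairs (27.6%) and above in 5 (8.62%). SBE2 was below in 15 of 58 (25.9%) and above in 5 (8.62%), against 19.3% below and 14.4% above over all window pairs. SBE3, in the next window to SBE2, showed 11 below and 10 above, close to the background. The SBE4 window, then, contacted Shh more in limb while most of its other one-sided contacts were lower there. For SBE4 the excess below was not kept when reads were divided by fragment totals, which gave 7 below and 8 above. For SBE2 the same division gave 14 below (24.1%) and 7 above (12.1%). All window pairs then gave 19.1% below and 16.1% above, so the departure of SBE2 from the background was small both before and after the division.

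Within the Rnf32 interval, where the oral and pharyngeal enhancers lie, the 3 forebrain enhancer windows were one-sided about as often as all window pairs. Of their 27 pairs there, 6 (22.2%) were lower in limb and 3 (11.1%) higher, against 19.3% and 14.4% over all. Differences between these windows were not tested. SBE4 was lower in limb with 4 of the 9 windows and higher with 1, SBE2 was lower with 2, and SBE3 was higher with 2. The first window of the interval (chr5:29381087-29409086) gave opposite directions for Shh and SBE4. Shh with this window had an interaction frequency of 0.0231 and 0.0174 in limb, against 0.0102 and 0.00913 in head. Both limb values were higher, by a factor of 1.70 between the nearest libraries, and they were higher in all 6 settings. SBE4 with the same window had 0.0133 and 0.0135 in limb, against 0.0246 and 0.0279 in head. Here limb was lower, by a factor of 1.82, although not after division by fragment totals.

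The other one-sided contacts of SBE4 in the interval were smaller. Its contacts with the second window (gap of 1.10), the fifth (1.19) and the seventh (1.22) were lower in limb, and its contact with the last (1.15) was higher. None of these 4 survived every setting. SBE2 with the first window was lower in limb in all 6 settings, at 0.0196 and 0.0217 against 0.0254 and 0.0284 in head. SBE2 with the fourth window had 0.0131 and 0.0169 in limb, against 0.0262 and 0.0233 in head, and was lower in limb in all settings but the division by fragment totals. SBE3 with the window of Rnf32, which encodes a RING finger protein, had 0.0115 and 0.0122 in limb, against 0.00817 and 0.0103 in head. Like SBE3 with the fifth window (gap of 1.09), that contact overlapped after division by fragment totals.

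Shh itself was one-sided with 3 windows of the interval. Besides the first window, it met the fifth (chr5:29493087-29521086) more often in limb, at 0.0204 and 0.0192 against 0.0128 and 0.0171 in head, and did so in all 6 settings. It met the eighth (chr5:29577087-29605086), within Lmbr1, less often, at 0.0232 and 0.0291 against 0.0333 and 0.0371, except relative to separation, where the tissues overlapped. SFPE1 with this eighth window was also lower in limb, by 1.03 between the nearest libraries. The eighth window was lower in limb with 21 of its 58 partners (36.2%) and higher with 4 (6.90%), against 19.3% and 14.4% over all window pairs. After division by fragment totals it had 11 (19.0%) in each direction. It was singled out after its counts were seen.

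Over all its windows, the interval was close to the background. With windows outside it, 90 of 462 pairs (19.5%) were lower in limb and 55 (11.9%) higher. The windows of the 3 forebrain enhancers were lower in limb with 41 of 172 partners (23.8%) and higher with 20 (11.6%), and lower with 32 (18.6%) under either the correction for separation or that for fragment totals. All window pairs were lower in limb in 14.5% of cases under the former and in 19.1% under the latter.

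**Figure D2:**
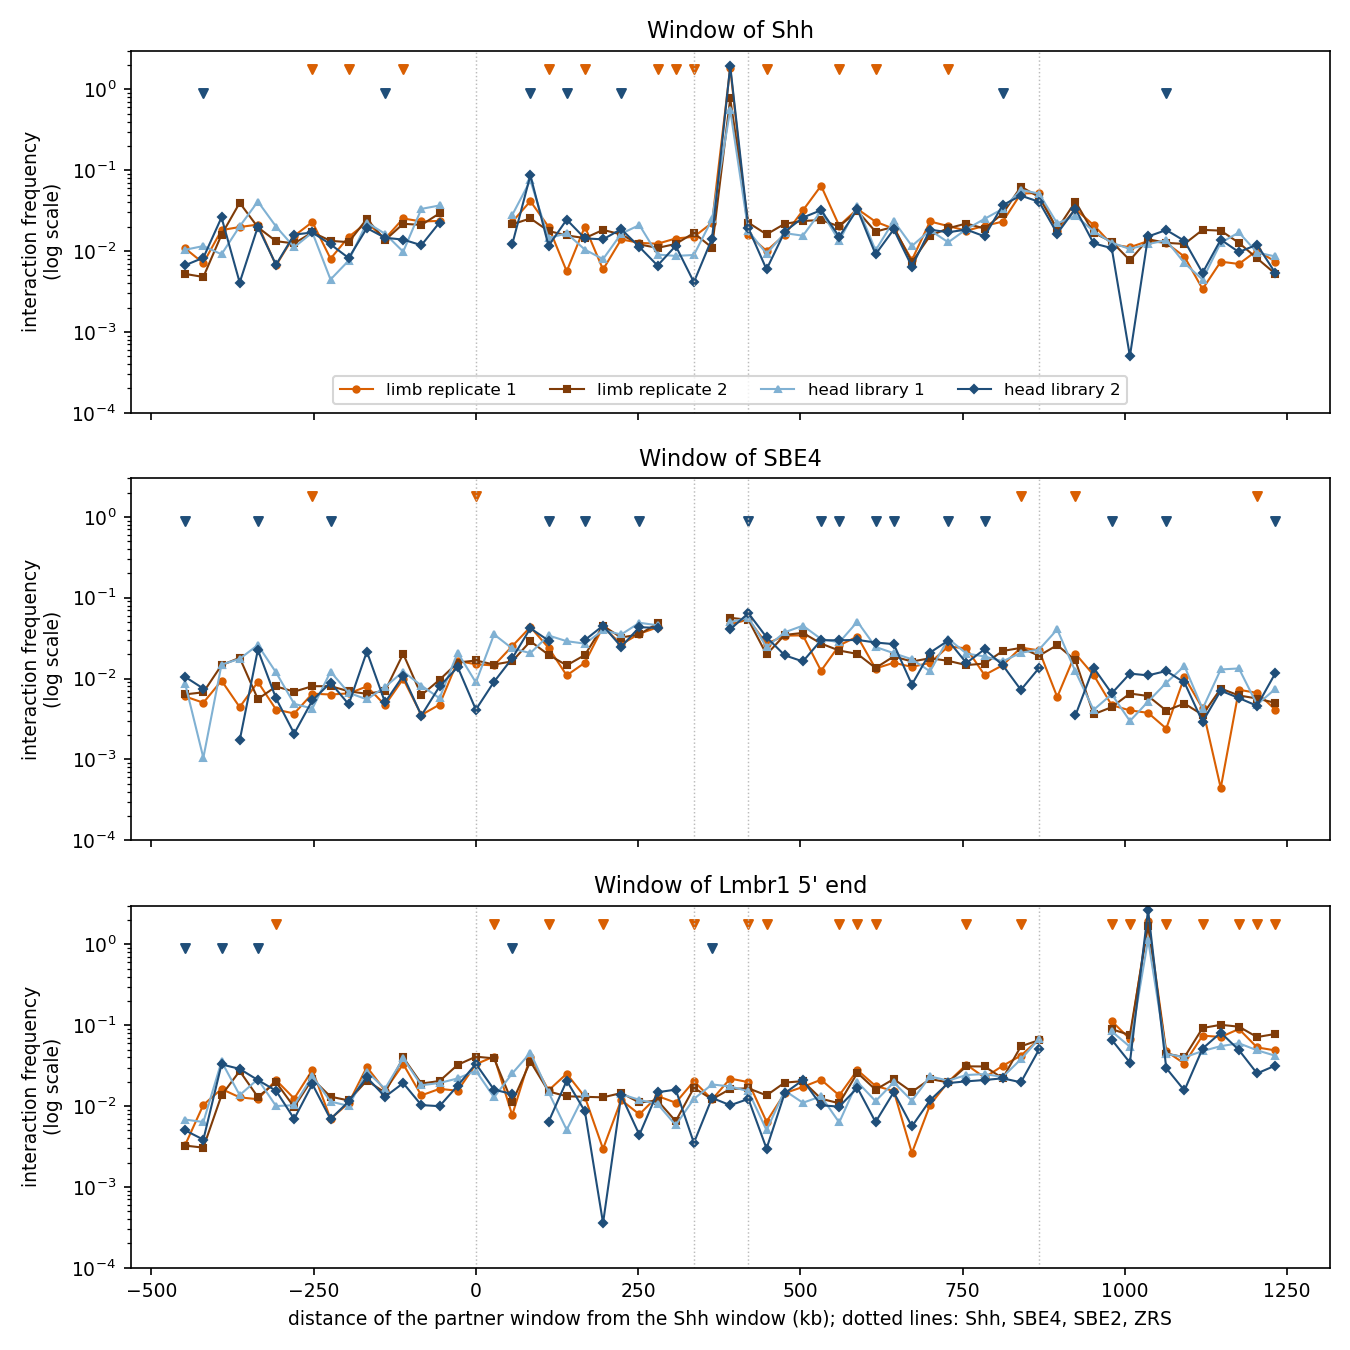
Interaction frequency (log scale, library values of 0 not drawn) of the Shh, SBE4 and Lmbr1 5′-end windows with every window at least 56 kb away, by distance from the Shh window in kb, in each library. Orange triangles mark partners with both limb replicates above both head libraries and blue triangles those below: 12 and 7 for Shh, 5 and 16 for SBE4, and 19 and 5 for Lmbr1. The tall peaks in the top and bottom panels are isolated contacts of single primer pairs.

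The ZRS window was higher in limb more often than lower. Of its 58 window pairs, 13 (22.4%) were above head and 6 (10.3%) below, against 14.4% and 19.3% over all window pairs. After division by fragment totals 16 (27.6%) were above and 10 (17.2%) below, against 16.1% and 19.1% over all. Within the Rnf32 interval, 3 of its 8 contacts were higher and none lower, too few to set apart from the background. The ZRS with the third window gave 0.0263 and 0.0315 in limb, against 0.0210 and 0.0168 in head. With the fifth it gave 0.0363 and 0.0470, against 0.0337 and 0.0255, and with the seventh 0.0334 and 0.0349, against 0.0273 and 0.0251. All 3 kept their side in all 6 settings. Shh and the ZRS thus shared the fifth window as a contact that was higher in limb, and SBE4 was lower there. The balance of the ZRS window turned when limb replicate 2 was left out, to 17 pairs above head (29.3%) and 20 below (34.5%), with 24.7% and 32.9% over all window pairs. It also turned when head library 2 was left out, to 20 (34.5%) and 25 (43.1%), with 28.6% and 45.4% over all.

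The window of Shh resembled that of the ZRS, with 12 of 58 pairs above head and 7 below, and with 16 and 8 after division by fragment totals. In the Shh domain it had 9 of 31 pairs above and 4 below. Shh with the window of Cnpy1, which encodes a regulator of fibroblast growth factor signalling, was 0.0150 and 0.0129 in limb, against 0.00763 and 0.00820 in head. Both limb values were higher, by a factor of 1.57 between the nearest libraries, and they were higher in all 6 settings. Shh with the window of Rbm33, its next coding gene on the 3′ side, differed by a factor of only 1.03. The balance of the Shh window turned to 20 above (34.5%) and 21 below (36.2%) when head library 2 was left out, against the same 28.6% and 45.4% over all window pairs.

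Contacts of long range were less frequent in limb. Window pairs 46 to 60 windows apart were lower in limb in 39 of 116 cases (33.6%) and higher in 11 (9.48%). These pairs took 1.18% and 1.31% of the reads in limb, against 1.60% and 1.77% in head. Both limb shares were lower, and the mean over the head libraries was 1.36 times that over the limb replicates. At 31 to 45 windows the shares were 5.92% and 5.74% against 6.03% and 7.34%, and at 21 to 30 windows 5.48% and 5.71% against 6.10% and 6.33%. Limb was below both head libraries in all 3 bands, also without the isolated contacts. At 2 to 5 windows the shares were 19.7% and 19.5% against 19.2% and 19.5%, and the limb and head libraries overlapped once the isolated contacts were left out.

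The lower long-range contact in limb also appeared between domains. For the outer domains this is no separate observation, because the window pairs between them are all of long range. The region was divided into a domain 3′ of Shh, a Shh domain that ends in the 5′ part of Lmbr1, and a domain beyond Lmbr1. Contacts between the 2 outer domains took 3.41% and 3.00% of the reads in limb, against 3.47% and 4.08% in head. Of 190 window pairs between them, 50 (26.3%) were lower in limb and 16 (8.42%) higher. Contacts between the Shh domain and the domain beyond Lmbr1 took 6.44% and 6.45% in limb, against 6.98% and 7.75% in head, and 95 of their 385 window pairs (24.7%) were lower in limb. With the domain edges moved 1 window towards Ube3c, the latter shares were 11.1% and 10.5% in limb against 9.55% and 13.96% in head, and overlapped. Once each library was divided by its own mean at the same separation, 24 pairs between the outer domains were lower in limb (12.6%) and 33 higher (17.4%), against 14.5% and 18.7% of all window pairs. Between the Shh domain and the domain beyond Lmbr1 the same division gave 73 lower (19.0%) and 59 higher (15.3%). The share of reads in primer pairs between chromosomes was 1.53% and 0.724% in limb, against 0.614% and 2.36% in head. The limb values lay between those of the head libraries, and the part of such ligation in the long-range shares was not tested.

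**Figure D3:**
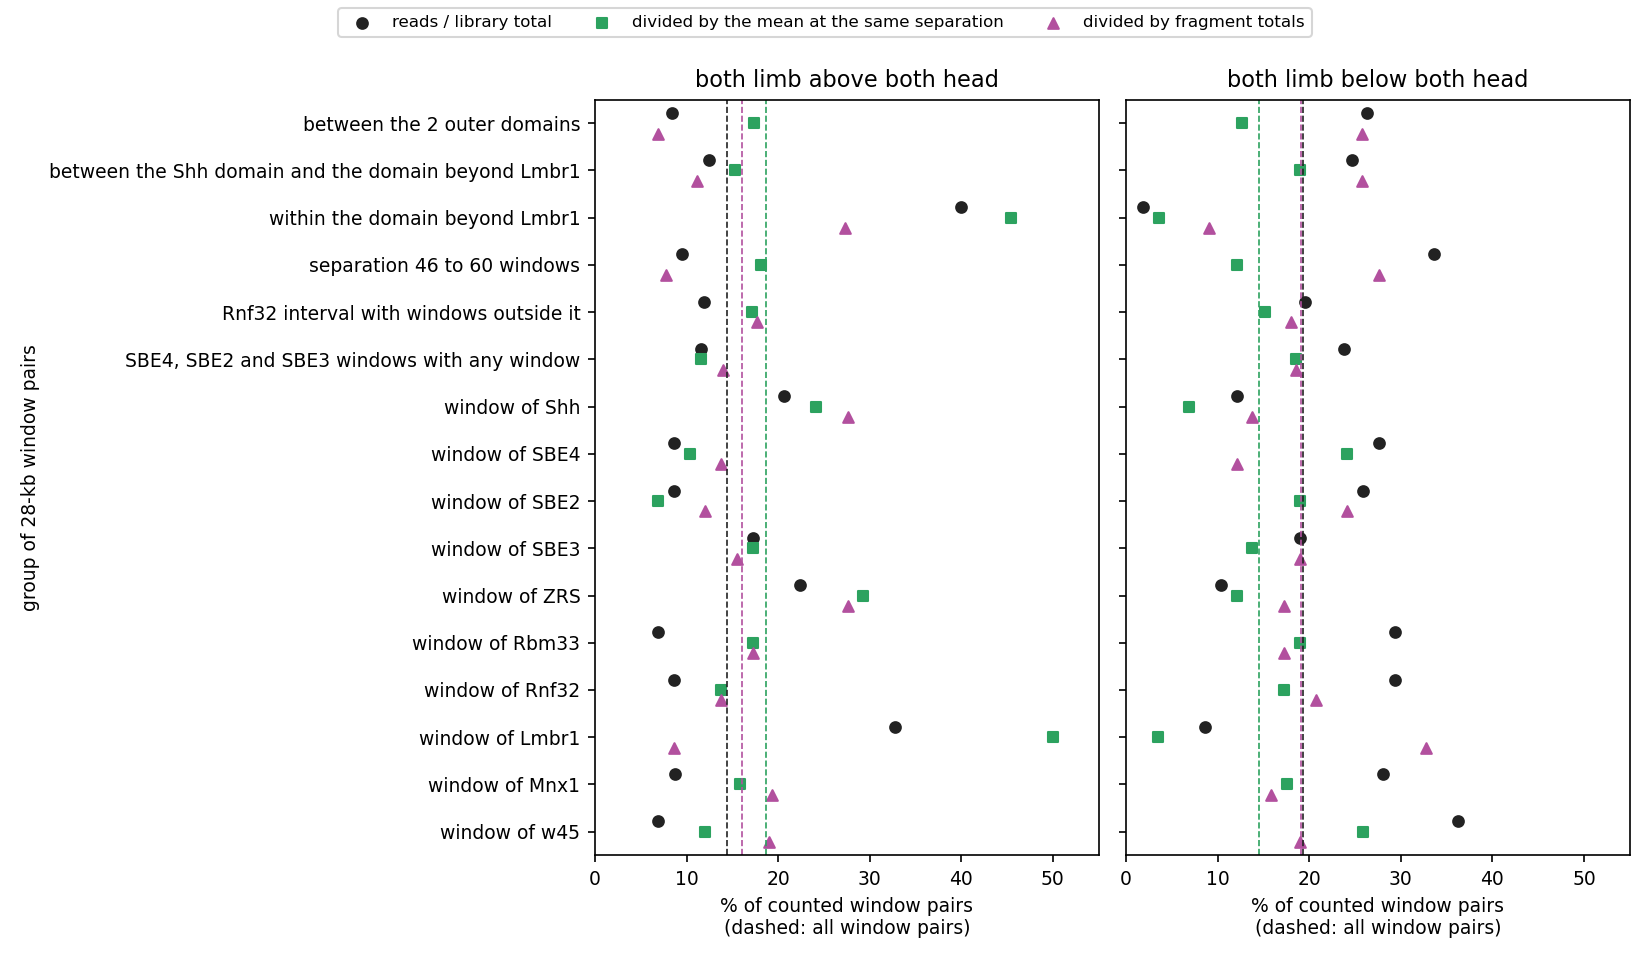
Share of counted window pairs with both limb replicates above (left) or below (right) both head libraries, for groups of window pairs, under 3 scalings, each with its dashed line for all window pairs. Between the outer domains 26.3% lie below by reads over library total, which falls to 12.6% relative to the mean at the same separation, and the Lmbr1 5′-end window changes side when reads are divided by fragment totals.

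In the domain beyond Lmbr1, which holds Nom1, Mnx1 and Ube3c, contacts were more frequent in limb. Of its 55 window pairs, 22 (40.0%) were higher in limb and 1 was lower. The domain took 18.5% and 19.4% of the reads in limb, against 17.2% and 18.3% in head. With its edge moved 1 window towards Ube3c, past the 5′ end of Lmbr1, the shares overlapped, at 11.6% and 12.6% against 12.3% and 10.0%. Without the fragment R463 described below, 17 of the 55 pairs were higher. Mnx1 encodes a motor neuron transcription factor, Ube3c a ubiquitin ligase and Nom1 a nucleolar protein. Mnx1 with Ube3c gave 0.0521 and 0.0465 in limb, against 0.0352 and 0.0403 in head, and Nom1 with Ube3c gave 0.0221 and 0.0293 against 0.0179 and 0.0186. Both overlapped after division by fragment totals. Under all 3 scalings more pairs of this domain were higher in limb than lower, with 25 and 2 relative to separation, and 15 and 5 after division by fragment totals.

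The window of the 5′ end of Lmbr1, which encodes a membrane protein, had the most one-sided pairs in the upward direction. These were 19 of 58 (32.8%), against 5 (8.62%) downward, with 14.4% and 19.3% over all window pairs. SFPE1 with this window was the clearest, at 0.0410 and 0.0389 in limb against 0.0128 and 0.0160 in head. The lower limb value was 2.44 times the higher head value, and limb stayed higher in all 6 settings. SBE4 with this window was 0.0203 and 0.0168 in limb against 0.0123 and 0.00351 in head. SBE2 with it was 0.0198 and 0.0166 against 0.0153 and 0.0123, and SBE3 with it was 0.00641 and 0.0136 against 0.00503 and 0.00298. All 3 were higher in limb by reads over the library total.

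A single fragment weighed on these values. R463, at chr5:29713093-29716181, had 138 primer pairs with at least 50 reads, of which 52 were higher in limb and 11 lower. All its contacts together took 20.6 reads in every 1000 in each limb replicate, against 15.7 and 13.8 in the head libraries. Without R463, the window had 14 pairs above head and 8 below, and SBE4 and SBE2 were no longer one-sided with it while SFPE1 was, whereas SBE3 lost its difference only after division by fragment totals. After division by fragment totals the window turned, with 5 above and 19 below. These totals include the isolated contacts described below. One such contact joins another fragment of this window to one beside Mnx1, at 43.9 and 38.5 in limb against 25.8 and 62.7 in head. F546, in Ube3c, was the opposite case, with 0 of 32 primer pairs higher in limb and 19 lower. Its contacts took 1.52 and 0.507 reads in every 1000 in limb, against 4.22 and 2.95 in head. A fragment total is the sum of the contacts of that fragment, and whether it differed through capture, primer or conformation was not tested.

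**Figure D4:**
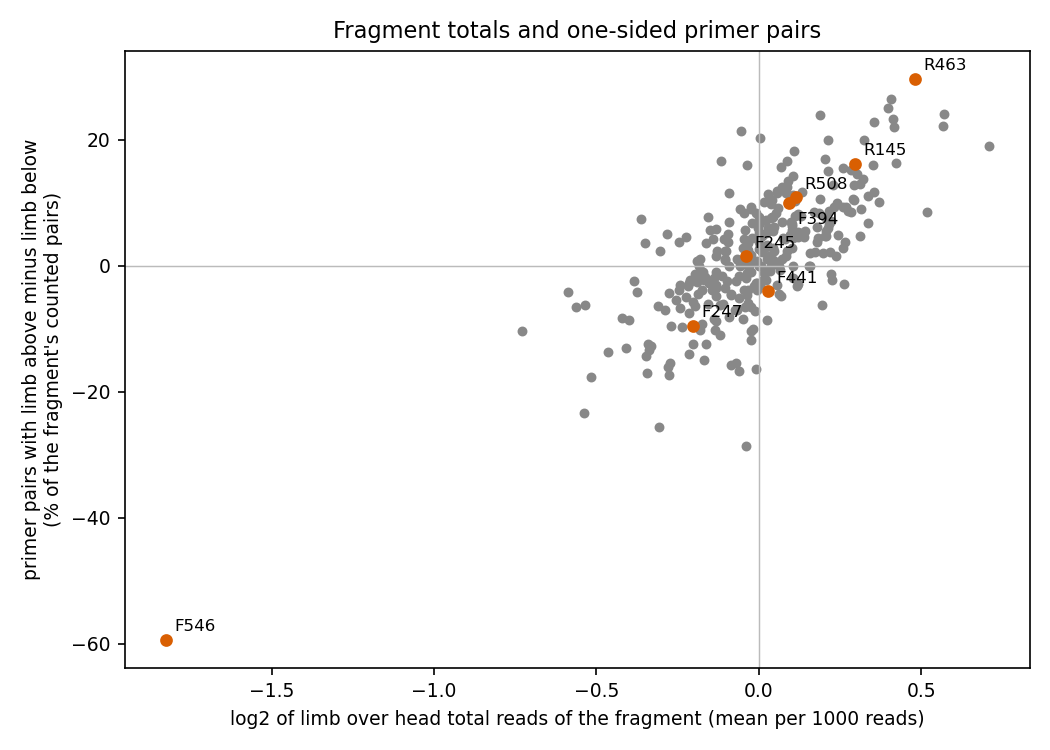
Each point is 1 of 318 fragments with at least 20 counted primer pairs. The horizontal axis is the log2 ratio of its total reads in limb over head (mean reads per 1000 of the library), and the vertical axis is the percentage of its primer pairs with limb above both head libraries minus the percentage with limb below both. R463 (52 above and 11 below) is the highest and F546 (0 and 19) the lowest.

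Among the pairs of the genes of the region, those of Insig1 that were one-sided were lower in limb. Insig1, a regulator of sterol synthesis, lies at the 3′ edge of the region, and over all 58 partners its window was lower in limb with 11 (19.0%), close to the background. Its window with that of Lmbr1 gave 0.0163 and 0.0136 in limb, against 0.0356 and 0.0328 in head, a factor of 2.02 between the nearest libraries. With Rnf32 it gave 0.00829 and 0.00890 against 0.0113 and 0.0192, with Rbm33 0.0324 and 0.0352 against 0.0408 and 0.0482, and with Ube3c 0.00917 and 0.00787 against 0.0161 and 0.0144. With En2 it gave 0.0185 and 0.0282 against 0.0470 and 0.0292. Of these, the contacts with Rnf32 and Rbm33 stayed lower in limb in all 6 settings. Those with Cnpy1, Nom1 and Mnx1 overlapped, the last at 0.0112 and 0.0171 in limb against 0.00246 and 0.0115 in head. En2, a homeobox gene of the midbrain and hindbrain, met Rnf32 more often in limb, at 0.00609 and 0.00728 against 0.00559 and 0.00485. Rnf32 with Lmbr1 gave 0.0325 and 0.0310 in limb against 0.0242 and 0.0202 in head, and overlapped after division by fragment totals.

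Over the element windows and genes, 44 of the named window pairs outside the 13 enhancer pairs were one-sided, 21 higher and 23 lower in limb. They were named because they were one-sided, so their number is not a share of the pairs looked at. It shows no excess over the 14.4% higher and 19.3% lower among all window pairs, which was not tested. In all 6 settings, and without R463 where its window was in the pair, 13 kept their side, 8 of them higher. Division by fragment totals undid 23 and the correction for separation 17, whereas thinning to equal depth undid none. SBE4 and SBE2 with Nom1 were among the 13, at 0.00468 and 0.00444 in limb against 0.00641 and 0.00656 in head for SBE4. For SBE2 with Nom1 the values were 0.00680 and 0.00797 against 0.0141 and 0.00987. SBE2 with Mnx1, at 0.00694 and 0.00655 in limb against 0.0165 and 0.00958 in head, was not, since it overlapped after division by fragment totals.

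The window pairs with the widest gaps rested on few reads. Of the 10 widest in the upward direction, 5 had no read in either head library, and they held 50 to 204 reads over the 4 libraries. The widest, between windows in the desert at chr5:28905087-28933086 and chr5:29353087-29381086, had 27 and 100 reads in limb and none in head. The window of En2 with that at chr5:28821087-28849086 had 24 and 118 reads in limb and none in head, from 11 primer pairs. In the downward direction the 10 widest held 83 to 1000 reads. The window of SBE3 with that at chr5:29969087-29997086, in Ube3c, had 24 and 60 reads in limb, against 95 and 105 in head, an interaction frequency lower in limb by a factor of 2.55. The window of SBE4 with that at chr5:28429087-28457086, between Insig1 and En2, had 43 and 67 reads in limb, against 191 and 148 in head, a factor of 2.50.

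Single primer pairs showed the same sparsity. Of 13792 with at least 50 reads, 2393 (17.4%) were higher in limb and 2114 (15.3%) lower. In 821 of the former neither head library had a read, whereas in 175 of the latter neither limb replicate did. After thinning to equal depth, with the same minimum of reads, 1468 were higher and 1699 lower. Fewer primer pairs reach that minimum after thinning, so these counts cannot be set against those before it. F394, in the Rnf32 intron, appeared in 3 of the 10 widest contacts in the upward direction, each with a fragment of an intron of Lmbr1. With R425 it had 57 and 123 reads in limb, with R436 44 and 162, and with R432 42 and 95, and none of these had a read in head. R436 lies in the ZRS window. F247, read with Shh exons only in limb, was read with R508, beyond Lmbr1, only in head, at 77 and 94 reads. F441, in the ZRS window, was read with R35, between Insig1 and En2, 45 and 112 times in limb and 0 and 1 times in head. With R25, in an intron of the noncoding gene Gm16719, it was read 53 and 69 times in head and not in limb. Thus contacts with almost no reads in 1 tissue went both ways from the same fragment. Such contacts are not shown to be absent, since 34.0% to 58.7% of primer pairs had no read in a library.

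The primer pairs higher and lower in limb were alike in base composition and differed in separation. The median GC content of the fragments was 43.7% for pairs higher in limb, 43.5% for pairs lower and 43.6% for all. Their median fragment lengths were 3042 and 2854 bp. The median separation was 264 kb for pairs higher in limb and 358 kb for pairs lower, against 313 kb for all.

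A handful of primer pairs stood isolated from the pairs of the neighbouring primers, and none of these was one-sided. The 8 isolated contacts took 12.7% and 7.40% of all reads in the limb replicates, against 5.33% and 16.2% in the head libraries. Head library 2 had the highest frequency of the 4 libraries in all 8, and limb replicate 1 exceeded limb replicate 2 in 6. The most read lay in the windows of Shh and of its partner between SBE4 and SBE2, with frequencies of 48.97 and 20.3 in limb against 14.6 and 52.3 in head. Another joined a fragment at the 5′ end of Lmbr1 to one beside Mnx1, at 43.9 and 38.5 in limb against 25.8 and 62.7 in head. In both, the 2 libraries of the single head sample differed more than limb did from head. Since these reads enter every library total, the counts were repeated without them, which gave 275 window pairs higher in limb and 336 lower.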

How the data were processed

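The authors sequenced 5C libraries on an Ion PGM and processed them through a Torrent 5C pipeline on Galaxy. The deposited values are raw read counts per pair of forward and reverse HindIII fragments, on mm9, and were not normalised. Aligner versions were not given in the sources used here. Reads were divided by the sum of all deposited counts of the library, multiplied by 1000 and averaged over all primer pairs, unread ones included, between 28-kb windows, to which fragments were assigned by midpoint. The reads came from PCR without molecular identifiers, so Wilson 95% intervals and the limit of 3 reads cover counting error only.

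Both limb replicates were compared with both head libraries, each apart. The labels call the second limb library a replicate and the second head library a technical replicate. The head libraries were summed for edgeR 4.0.16 (quasi-likelihood, TMM, filterByExpr, R 4.3.3), with Benjamini-Hochberg adjustment at 0.05. The common biological coefficient of variation was 0.328. DESeq2 1.42.0 was an alternative. On simulated counts with the real means, the edgeR step called 8.96%, 62.7% and 89.4% of those given a log2 fold change of 1, 2 and 3, and 3 of 1680 unchanged window pairs.

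Members, windows, gene lists and rules were chosen with earlier results of these data known. Window pairs named were all pairs among the Shh and enhancer windows, one-sided pairs of these windows with the Rnf32 interval and listed genes, one-sided pairs of the genes, the 10 widest gaps in each direction for window pairs and for primer pairs with at least 100 reads (a selection is described), and isolated contacts. The gap is the lower value of the higher tissue over the higher value of the lower tissue. Isolated contacts had at least 100 reads, 20 times those of any pair formed by the 2 nearest primers on either side, in 2 libraries, at least 84 kb apart. The 6 settings were reads of the Shh region as denominator, observed over expected, isolated contacts left out, thinning to 675954 reads, capping at the 99th percentile of the separation, and division by fragment totals. The last, and the omission of R463, were chosen after seeing the data. Fragment totals included the isolated contacts. Sequences and annotation were those of NCBIM37 with GENCODE genes. Scripts ran under Python 3.11.15 with pysam 0.24.0, pandas 2.3.3, matplotlib 3.10.9, scipy 1.17.1 and numpy 2.4.6. The body library, the deposited distance column, FISH and primer sequences were not used here.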

Additional observations from a re-analysis of the deposited data

How the results depend on the processing

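Over the planned and added alternatives, counts of one-sided window pairs stayed within 1.5 times of 251 higher and 337 lower in limb except where the grid or the number of libraries changed. Windows of 14 kb gave 846 and 862, and windows of 56 kb gave 54 and 109. The number of pairs counted changes with the window, so these counts cannot be compared with 251 and 337. The balance of higher and lower changed as well. With each library left out in turn, which can only add one-sided pairs, the counts ran from 430 to 742 higher (24.7% to 42.6%). Those lower ran from 509 to 790 (29.2% to 45.4%). One-sided enhancer pairs ran from 8 to 12 of 13, the highest without head library 1. For primer pairs, thinning gave 1468 higher, no filter on low counts 4641 higher, and a filter of 100 reads 1294 higher and 1408 lower. Each of these changes how many primer pairs are counted, so the counts cannot be compared as shares. Leaving out a library gave 3760 to 5608 higher and 3095 to 5398 lower. The edgeR test called 0 window pairs with most alternatives, but 2 with library totals in place of TMM, 8 on a grid shifted by 14 kb, and 10 by DESeq2. It called 57 without head library 1 and 0 without head library 2, so the calls rest on which head library stands for the sample. The cause was not tested. The edgeR fit without a limb replicate has no test. Enhancer windows are defined on the 28-kb grid, so their pairs were not recomputed on the shifted or 14-kb grids. No paired analysis was possible because the labels give limb and head no shared replicate numbers and the head libraries are technical. Of the primer pairs, 34.0% to 58.7% had no read in a library, which limits what single contacts show.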
